A study of Homo sapiens with 6 samples.

Results

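The genes described here are MYB, MYC, MEIS1, PBX3, CDK6, SOX4, MEF2C, HMGA2, ID2 and BMI1. They are grouped here under the self-renewal of leukaemia cells with a rearranged MLL (KMT2A) gene. The grouping does not show that each gene, ID2 among them, sustains such cells, and this was not tested. They were followed in THP1, a line of monocytic acute myeloid leukaemia cells whose MLL rearrangement joins KMT2A to MLLT3. A member is every probe set (a group of short probes for one transcript region) that the array annotation assigns to exactly 1 gene symbol of that list. This gave 33 of the 54675 probe sets on the array, from 9 of the 10 genes. BMI1 has no probe set of its own by this rule, so no value is given for it, and 1 further probe set of ID2 was left out because it is also assigned to a second symbol.

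The comparison is between 2 groups of 3 samples, with 1 Affymetrix Human Genome U133 Plus 2.0 array per sample. Cells of the Dll4-Fc group grew on a coat of Dll4-Fc, a fusion of the Notch ligand Delta-like 4 with the Fc portion of an antibody, and the untreated group grew without it. RNA was taken after 48 hours in both. The coating concentration is uncertain, being 30 nM in the protocol, which names vehicle as the control, and 60 nM in the sample labels, which call the control untreated. All samples are the one cell line in serum-containing medium, no Fc-only control is among them, and nothing in the labels tells separate cultures from repeats of one. The p-values therefore cover the spread between these particular samples, which may be technical.

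In MLL-rearranged leukaemia the fusion protein recruits elongation and chromatin factors to genes that are normally active in stem and progenitor cells. The best known of these are the HOXA cluster and MEIS1, whose proteins bind DNA together with PBX partners, and from there MYB, MYC, MEF2C and CDK6 keep cells dividing and block their maturation into monocytes. Notch ligands act through a cleaved receptor fragment that joins the DNA-binding protein RBPJ and switches on genes such as HES1. Signals below are log2 values of the deposited intensities, and differences are Dll4-Fc minus untreated on that scale. A probe set passed where limma's test gave a Benjamini-Hochberg adjusted p, taken over all probe sets, under 0.05.

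Across whole arrays the groups were well separated. Arrays correlated at r = 0.996 to 0.998 within a group and at r = 0.984 to 0.988 between groups, across probe sets, which are not independent replicates. Principal component 1 (75.9% of variance) divided the groups, and component 2 (9.93%) set untreated replicate 3 apart. Signals of HES1 were 7.95, 7.78 and 8.12 on the Dll4-Fc arrays, against 5.20, 4.54 and 5.32 on the untreated arrays. That probe set can match more than one transcript, and the brightest HES1 probe set outside the shared ones differed by 0.003 (limma adjusted p = 0.988). For HES1 2 of 3 probe sets passed as higher, and the mean of its probe sets rose by 2.145 (limma adjusted p = 1.22e-06). Of 7 measured markers of monocytic lines, all had a mean signal over the 6 arrays above the median of all values (5.69). So had 12772 of all 19775 genes. CD86 did so only through the Dll4-Fc group, as its untreated mean was 4.36. In the Dll4-Fc group 5 of the 7 were higher, CD86 by 2.80, LYZ by 2.00 and FCER1G by 1.63 the most. The 2 that were lower were CSF3R (-0.45, limma adjusted p = 0.00215) and CEBPA (-0.21, 0.0447). By comparison, 11.6% of all genes were higher and 15.0% lower. For CD86 2 of 3 probe sets passed as higher, and without shared probe sets it gave 0.38 (limma adjusted p = 0.205). Of 8 measured markers of other cell types 3 lay above that median, namely COL1A1, PECAM1 and NCAM1. The T cell gene CD3E, the B cell gene MS4A1, the platelet gene PPBP, the epithelial gene EPCAM and the liver gene ALB lay below it.

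Of the 33 member probe sets 13 fell, 2 rose and 18 did not pass, where 16.5% of all probe sets passed, 9.25% as lower and 7.21% as higher. Over all probe sets 5059 fell and 3941 rose, and with cyclic loess between arrays 4070 fell and 4813 rose, while among the members 13 fell and 2 rose in that setting too. By gene, taking the brightest probe set of each, 5 of the 9 fell (CDK6, MYC, SOX4, MYB and PBX3), 1 rose (ID2) and 3 did not pass (MEF2C, MEIS1 and HMGA2), where 26.6% of all 19775 genes passed, 15.0% as lower and 11.6% as higher. None of the passing member probe sets changed 2-fold. The median difference of the 33 was -0.14, against -0.02 over all probe sets. Leaving out Dll4-Fc replicate 1 or 2 brought the falling probe sets to 8, and leaving out untreated replicate 2 to 7, while the count by gene stayed at 5 lower and 1 higher whichever array was left out.

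**Figure D1:**
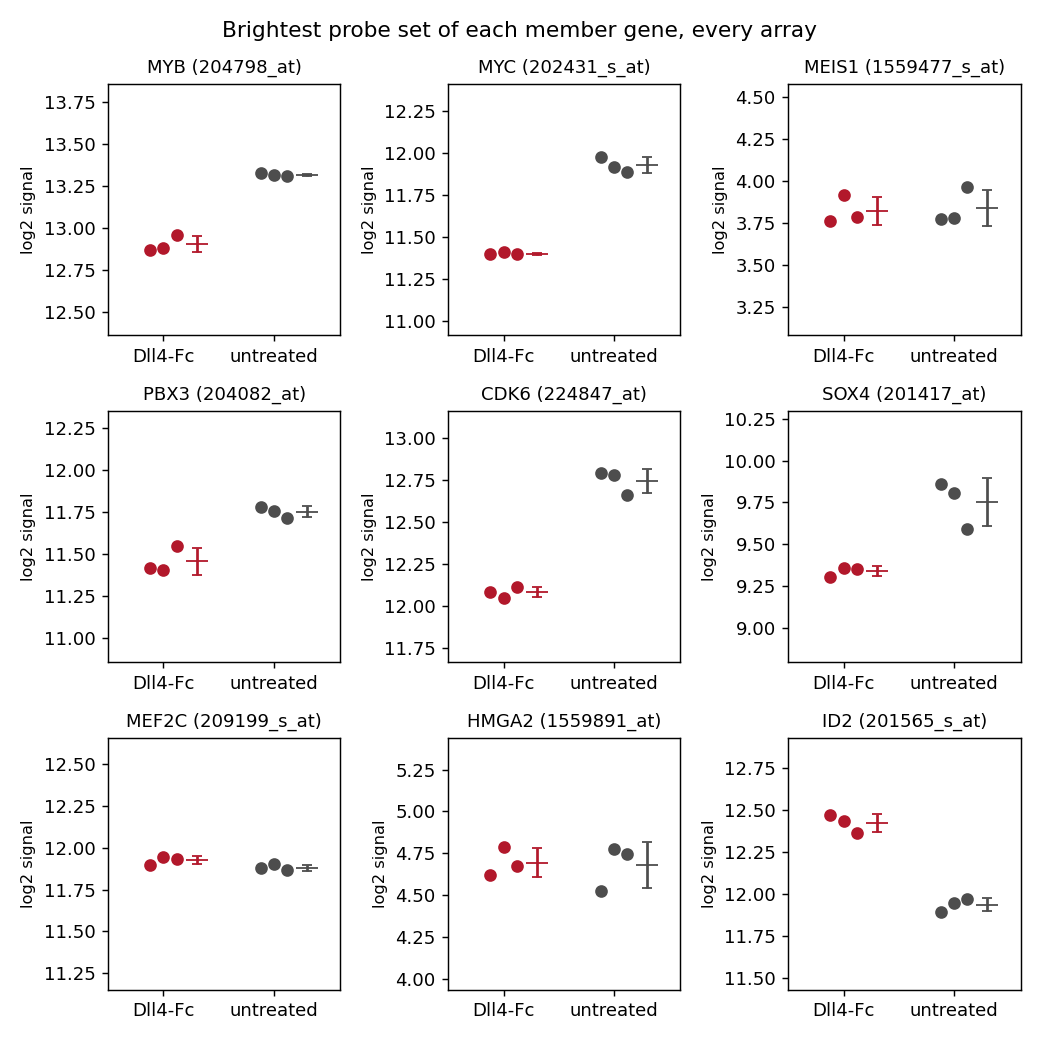
Log2 signal of the brightest probe set of each of the 9 member genes on every array. Points are arrays, Dll4-Fc (red) left of untreated (grey), the bar beside them is the mean with its SD (n = 3), and every panel spans the same height in log2 units. The groups stand clear of each other for MYB, MYC, PBX3, CDK6, SOX4 and ID2 and overlap for MEIS1, MEF2C and HMGA2.

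CDK6, a kinase that drives cells from G1 into S phase and also acts on transcription in blood cells, showed the largest fall of a gene's brightest probe set. Probe set 224847_at had signals of 12.09, 12.05 and 12.11 on the Dll4-Fc arrays, against 12.79, 12.78 and 12.66 on the untreated arrays. The groups did not overlap, and each was narrow compared with the gap between them. The difference was -0.66 ± 0.07 (SE, n = 3 arrays per group), a 1.58-fold fall with limma adjusted p = 4.08e-04. In a bulk sample such as this, fewer cells with a transcript and less of it per cell cannot be told apart.

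Of the 7 CDK6 probe sets 6 fell, by differences from -0.39 to -0.86, and in all 6 the groups did not overlap, as they did not for 33.2% of all probe sets. The next brightest, 224851_at, had 11.88, 11.71 and 11.82 on the Dll4-Fc arrays, against 12.54, 12.50 and 12.47 on the untreated arrays (difference -0.70 ± 0.07, limma adjusted p = 3.66e-04). 224848_at had 10.80, 10.67 and 10.75 on the Dll4-Fc arrays, against 11.57, 11.48 and 11.43 on the untreated arrays (-0.75 ± 0.07, limma adjusted p = 2.82e-04). All 3 of these bright probe sets showed the groups apart, and each passed whichever array was left out.

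The dimmer CDK6 probe sets were less even. 235287_at had 5.98, 5.61 and 6.0 on the Dll4-Fc arrays, against 6.88, 6.98 and 6.30 on the untreated arrays (-0.86 ± 0.19, limma adjusted p = 0.0169), with untreated replicate 3 well below its group. 207143_at differed by -0.62 ± 0.13 and 243000_at by -0.39 ± 0.10 (limma adjusted p = 0.0140 and 0.0286). 231198_at, the dimmest and below the median signal, differed by -0.18 ± 0.14 and did not pass (95% confidence interval -0.51 to 0.14). Left-out arrays ended the call of 243000_at in 4 of 6 cases, of 235287_at in 3 and of 207143_at in 1.

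MYC, a transcription factor that raises ribosome production and cell growth, is measured by a single probe set, 202431_s_at. Its signals were 11.40, 11.41 and 11.40 on the Dll4-Fc arrays, against 11.98, 11.92 and 11.88 on the untreated arrays. The Dll4-Fc arrays were almost identical and all lay below every untreated array. The difference was -0.53 ± 0.06, a 1.44-fold fall (limma adjusted p = 8.62e-04), and it ranged from -0.55 to -0.50 with an array left out. The suffix of this probe set marks probes that can match more than one transcript, and no other probe set measures MYC here.

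MYB, the transcription factor that holds blood progenitors in an immature, dividing state, had a bright probe set and a dim one. 204798_at had 12.87, 12.88 and 12.96 on the Dll4-Fc arrays, against 13.33, 13.31 and 13.31 on the untreated arrays (difference -0.41 ± 0.06, 1.33-fold lower, limma adjusted p = 0.00303). It passed whichever array was left out, and the untreated arrays agreed within 0.01 (SD, n = 3). 215152_at had 6.79, 6.81 and 6.99 on the Dll4-Fc arrays, against 7.29, 7.13 and 6.95 on the untreated arrays, so the groups overlapped through Dll4-Fc replicate 3 and untreated replicate 3. It differed by -0.26 ± 0.10 and did not pass (limma adjusted p = 0.139). With an array left out the adjusted p ran from 0.0471 to 0.338, and it passed only without untreated replicate 3. That array was the untreated array closest to the Dll4-Fc group, so a larger difference had to follow and is no check.

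SOX4, a transcription factor of progenitor cells whose overexpression promotes myeloid leukaemia in mice, fell by 3 of its 6 probe sets. 201417_at, the brightest, had 9.30, 9.36 and 9.35 on the Dll4-Fc arrays, against 9.86, 9.81 and 9.59 on the untreated arrays (difference -0.41 ± 0.08, limma adjusted p = 0.0119). 201416_at had 7.64, 7.5 and 7.54 on the Dll4-Fc arrays, against 8.25, 8.06 and 8.07 on the untreated arrays (-0.57 ± 0.08, limma adjusted p = 0.00203). 213668_s_at differed by -0.50 ± 0.10 (limma adjusted p = 0.0138). All 3 were separated without overlap, and so were 5 of the 6 SOX4 probe sets in all. Over the whole array the groups did not overlap for 33.2% of probe sets, and 9.25% fell. Leaving out Dll4-Fc replicate 1 ended the calls of 201417_at and 213668_s_at (adjusted p = 0.0537 and 0.0602), and so did leaving out untreated replicate 2 (0.0513 and 0.0563).

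The other 3 SOX4 probe sets did not pass. 201418_s_at differed by -0.14 ± 0.07 (95% confidence interval -0.30 to 0.02), although its signals, 7.37, 7.38 and 7.49 on the Dll4-Fc arrays, all lay below those on the untreated arrays, 7.62, 7.52 and 7.51. The probe sets 213665_at and 1567906_at, both below the median signal, differed by -0.20 ± 0.07 and -0.07 ± 0.11. All 6 SOX4 differences were negative, from -0.57 to -0.07.

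PBX3, the homeodomain partner through which HOXA9 and MEIS1 bind DNA in MLL-rearranged leukaemia, showed the smallest fall of the 5 genes. Its only probe set, 204082_at, had 11.41, 11.40 and 11.55 on the Dll4-Fc arrays, against 11.78, 11.76 and 11.71 on the untreated arrays. The groups did not overlap, and Dll4-Fc replicate 3 lay closest to the untreated arrays. The difference was -0.29 ± 0.07, 1.23-fold lower (limma adjusted p = 0.0218). That call was lost without Dll4-Fc replicate 1, Dll4-Fc replicate 2, untreated replicate 1 or untreated replicate 2 (adjusted p = 0.0694 to 0.0908, differences from -0.29 to -0.27). In the fit over genes PBX3 passed (limma adjusted p = 0.00995), also with any single array left out.

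MEIS1, the other homeodomain cofactor of the HOXA proteins and a classical target of MLL fusions, had dim signals in both groups. 1559477_s_at gave 3.76, 3.91 and 3.79 on the Dll4-Fc arrays, against 3.78, 3.78 and 3.96 on the untreated arrays (difference -0.02 ± 0.08, 95% confidence interval -0.21 to 0.17). 204069_at gave 3.47, 3.47 and 3.51 on the Dll4-Fc arrays, against 3.46, 3.35 and 3.49 on the untreated arrays (0.05 ± 0.07, interval -0.10 to 0.20). Both probe sets lay below the median of all values and the groups overlapped, so a change of MEIS1 was not detectable at these signals.

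MEF2C, a MADS-box transcription factor linked to the homing and stemness of MLL-rearranged leukaemia cells, had bright signals that did not pass. 209199_s_at gave 11.90, 11.94 and 11.93 on the Dll4-Fc arrays, against 11.88, 11.90 and 11.86 on the untreated arrays. The difference of 0.05 ± 0.06 had a 95% confidence interval of -0.09 to 0.18 and the groups overlapped. Whether this differs from the falls of the other genes was not tested. 209200_at differed by -0.11 ± 0.08 (interval -0.28 to 0.07) and 207968_s_at by -0.06 ± 0.13 (-0.35 to 0.23), with overlapping groups in both.

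HMGA2, a chromatin protein of stem and embryonic cells that the let-7 microRNAs keep low, had 9 probe sets, all below the median of all values. Their signals spanned 2.84 to 4.79 on the Dll4-Fc arrays and 2.91 to 4.77 on the untreated arrays. The differences ran from -0.24 to 0.30 with a median of -0.01, and 8 of the 9 did not pass. The exception, 1568286_at, is among the dimmest: it gave 2.92, 3.02 and 2.86 on the Dll4-Fc arrays, against 3.19, 3.19 and 3.15 on the untreated arrays (-0.24 ± 0.07, limma adjusted p = 0.0485). It did not pass with any single array left out (adjusted p = 0.0563 to 0.145), and 208025_s_at differed the other way, by 0.30 ± 0.10 (adjusted p = 0.0828). The latter, also dim, passed as higher with a trended robust prior (limma adjusted p = 0.0483) and with array weights (0.0441). It also passed without Dll4-Fc replicate 2 (0.0322), its Dll4-Fc array closest to the untreated group.

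ID2, which binds E proteins and keeps them off DNA, was the one member that rose. 201565_s_at had 12.47, 12.43 and 12.36 on the Dll4-Fc arrays, against 11.90, 11.95 and 11.97 on the untreated arrays (difference 0.49 ± 0.06, 1.40-fold, limma adjusted p = 0.00165). 201566_x_at had 10.89, 10.80 and 10.90 on the Dll4-Fc arrays, against 10.15, 10.34 and 10.22 on the untreated arrays (0.63 ± 0.07, 1.54-fold, limma adjusted p = 9.49e-04). Every Dll4-Fc array lay above every untreated array in both, and both passed whichever array was left out. Both suffixes mark probes that can match more than one transcript, and ID2 has no other probe set under the rule used here.

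**Figure D2:**
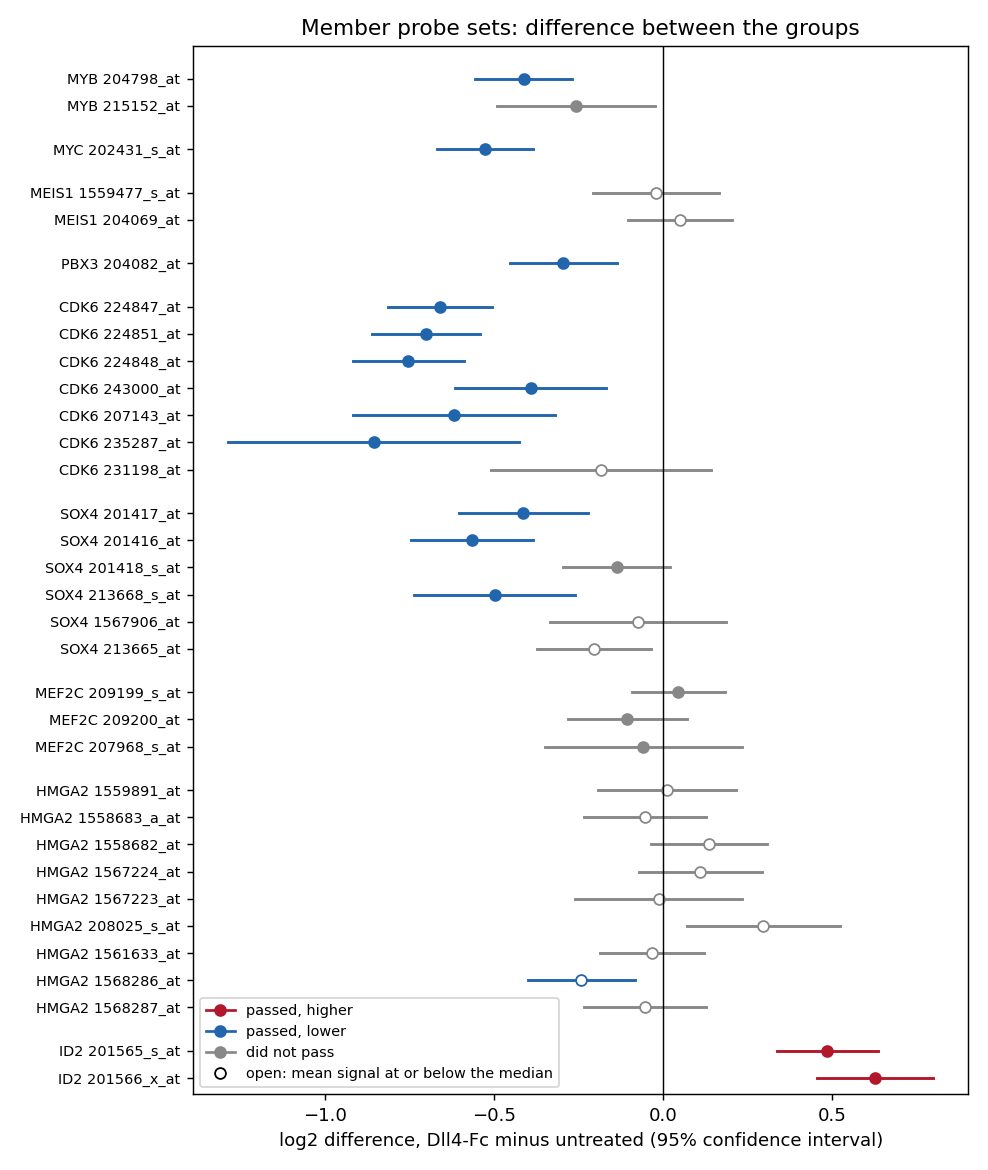
Log2 difference (Dll4-Fc minus untreated, horizontal axis) of all 33 member probe sets with its 95% confidence interval, grouped by gene and ordered within a gene from the brightest to the dimmest. Red probe sets passed as higher, blue as lower and grey did not pass, and open points have a mean signal at or below the median of all values (5.69). The 6 passing CDK6 probe sets lie between -0.86 and -0.39, both ID2 probe sets lie to the right of 0, and most open points sit near 0.

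Brightness and call went together among the members. Of the 19 member probe sets above the median signal 12 fell, 2 rose and 5 did not pass, where 27.8% of all probe sets above it passed, 16.0% as lower and 11.8% as higher. Of the 14 at or below it 1 passed and 13 did not, where 5.05% of all such probe sets passed. Among the 13 probe sets that fell, untreated replicate 3 had the lowest of the untreated values in 12, and so it did in 60.8% of all probe sets that fell. Without that array the differences were as large or larger for MYC (-0.55), for the brightest probe sets of MYB (-0.42), CDK6 (-0.70), SOX4 (-0.49) and PBX3 (-0.31), and for the brightest of ID2 (0.50), and all 6 passed. The larger differences had to follow, because in each of the 6 that array was the untreated array closest to the Dll4-Fc group. They are therefore no check on the calls.

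Macrophage maturation markers moved with these changes. Of 7 measured, 0 fell and 6 rose, each at least 2-fold, where 15.0% of all genes fell and 11.6% rose. The summed log2 signal of the 7 lay between 57.6 and 58.3 on the Dll4-Fc arrays, against 36.9 to 38.5 on the untreated arrays. CD14, a coreceptor for lipopolysaccharide on monocytes, had 10.63, 10.67 and 10.55 on the Dll4-Fc arrays, against 5.46, 4.56 and 4.90 on the untreated arrays. C1QC, a complement subunit, rose by 5.14 ± 0.25 on the log2 scale and MERTK, a receptor for the uptake of dying cells, by 4.60 ± 0.15. For MERTK 2 of 3 probe sets passed as higher, and without shared probe sets it gave 0.13 (limma adjusted p = 0.210). The mannose receptor gene MRC1 differed by 0.10 ± 0.07 and did not pass. The part of maturation in the changes of the member genes was not tested. The summed log2 signal of the 8 markers of other cell types lay between 46.1 and 46.8 on the Dll4-Fc arrays, against 45.3 to 46.2 on the untreated arrays, and PECAM1, which monocytes also carry, was the only one of them that passed (0.55 ± 0.06).

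The stretch of 250 bases before the gene start was read for the members from RefSeq (GRCh38.p14), where 8 of the 10 genes have an entry. Shown are MYB and SOX4, which fell, and ID2, which rose, each with a single start in that table; the trio was chosen after the values were seen. Capitals mark matches on either strand of TGGGAA or GTGGGAA (the core of the RBPJ motif and a longer form that contains it), CACGTG (the E-box bound by MYC and MAX) and AACNG (the MYB core). Each is printed 5′ to 3′ on the strand of its gene.
MYB, chr6:135181058-135181307, plus strand: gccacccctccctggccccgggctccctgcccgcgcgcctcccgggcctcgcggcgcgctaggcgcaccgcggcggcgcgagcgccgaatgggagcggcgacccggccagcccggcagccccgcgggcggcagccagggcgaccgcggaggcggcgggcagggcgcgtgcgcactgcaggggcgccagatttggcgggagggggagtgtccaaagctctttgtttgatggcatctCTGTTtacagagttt
SOX4, chr6:21593501-21593750, plus strand: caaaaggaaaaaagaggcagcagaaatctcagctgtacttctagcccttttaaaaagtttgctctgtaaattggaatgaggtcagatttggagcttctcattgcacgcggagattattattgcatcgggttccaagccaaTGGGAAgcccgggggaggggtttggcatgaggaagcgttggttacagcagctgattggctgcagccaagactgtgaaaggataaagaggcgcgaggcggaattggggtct
ID2, chr2:8681806-8682055, plus strand: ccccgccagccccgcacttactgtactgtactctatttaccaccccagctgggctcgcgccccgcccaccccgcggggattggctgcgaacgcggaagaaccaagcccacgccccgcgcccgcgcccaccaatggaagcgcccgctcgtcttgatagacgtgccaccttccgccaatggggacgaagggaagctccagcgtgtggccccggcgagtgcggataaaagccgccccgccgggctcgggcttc

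In these windows SOX4 held TGGGAA on its plus strand, 110 bases before the start, and MYB held AACNG on its minus strand, 15 bases before the start. ID2 held none of the letters searched. TGGGAA occurs in 20.8% of all promoters of this length, GTGGGAA in 5.43%, CACGTG in 6.34% and AACNG in 70.6%. GC content was 75.6% for MYB, 48.8% for SOX4 and 69.2% for ID2, against a median of 58% over all promoters. A match describes letters only.

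The genes that work with the members were followed through 9 lists, counted by the brightest probe set of each gene. Of 119 measured partner genes 36 fell and 14 rose, where 15.0% of all genes fell and 11.6% rose; with cyclic loess between arrays 33 fell and 23 rose. Their median difference was -0.06, against -0.01 over all genes. Without Dll4-Fc replicate 3, 9 of them rose.

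Components of the MLL fusion machinery fell more often than they rose. Of 12 measured, 6 fell, 0 rose and 6 did not pass, where 15.0% of all genes fell and 11.6% rose. The median was -0.31. AFF1, a subunit of the elongation complex that MLL fusions recruit, had 11.15, 11.10 and 11.36 on the Dll4-Fc arrays, against 12.08, 12.19 and 12.22 on the untreated arrays (difference -0.96 ± 0.08, limma adjusted p = 1.62e-04). KMT2A itself fell by 0.56 ± 0.08 on the log2 scale (limma adjusted p = 0.00140) and MLLT3 by 0.42 ± 0.08 (0.00762). These probe sets do not say whether the normal or the fused transcript changed, and 3 of 11 KMT2A and 2 of 3 MLLT3 probe sets passed as lower. The histone demethylase gene KDM1A fell by 0.42 ± 0.05 (limma adjusted p = 9.47e-04).

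Of 8 measured genes of the HOXA and TALE homeodomain list, the relatives of MEIS1 and PBX3, 3 fell, 0 rose and 5 did not pass. By comparison, 15.0% of all genes fell and 11.6% rose. The median of the list was -0.11. The other 8 of the 16 listed genes were not analysed here, and no HOXA gene is among the 8 measured. The 3 that fell were TGIF2, a repressor of the TALE class (-0.43 ± 0.06, limma adjusted p = 0.00166), PKNOX1 (-0.30 ± 0.08, 0.0258) and MEIS2 (-0.25 ± 0.06, 0.0152). Leaving out Dll4-Fc replicate 1, Dll4-Fc replicate 2 or untreated replicate 1 left 1 that fell, and PKNOX1 gave -0.09 (adjusted p = 0.361) as the mean of its probe sets.

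Around MYC the changes were mixed. Of 11 measured members of the MAX network, the proteins that compete with MYC for its partner MAX or bind beside it, 3 rose, 3 fell and 5 did not pass. By comparison, 11.6% of all genes rose and 15.0% fell. MXI1, a repressor that opposes MYC, fell by 1.19 ± 0.08 on the log2 scale (limma adjusted p = 4.58e-05), while MXD1, another repressor of that kind and one that rises as myeloid cells mature, rose by 0.65 ± 0.10 (0.00274). MLXIPL, a glucose-responsive activator, rose by 0.61 ± 0.15 (limma adjusted p = 0.0236), a call kept only without untreated replicate 3 among the left-out arrays. MAX itself differed by 0.01 ± 0.06.

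Of 24 measured textbook MYC targets in ribosome building and growth, 4 rose, 2 fell and 18 did not pass, and the median was 0.04. The share that passed, 25%, was near the 26.6% of all genes. The nucleolar helicase gene DDX21 rose by 0.38 ± 0.06 and the transferrin receptor gene TFRC by 0.38 ± 0.05 (limma adjusted p = 0.00257 and 0.00113), while RRP12, a ribosome assembly factor, rose by 0.29 ± 0.07 (0.0231). The RRP12 call was lost without Dll4-Fc replicate 2, Dll4-Fc replicate 3, untreated replicate 2 or untreated replicate 3 (adjusted p = 0.0537 to 0.0844), as the mean of its probe sets (0.17, adjusted p = 0.0827) and without shared probe sets (0.06, adjusted p = 0.704). IMP4, a nucleolar factor, rose by 0.24, and the 2 that fell were FBL, which methylates ribosomal RNA (-0.21), and the cell cycle kinase gene CDK4 (-0.18). The CDK4 call was lost in 5 of 6 cases of a left-out array. With arrays left out one at a time, between 0 and 4 of the list fell and between 2 and 3 rose: the falls went to 0 without Dll4-Fc replicate 1, Dll4-Fc replicate 2 or untreated replicate 2 and to 4 without untreated replicate 3, and 2 rose without Dll4-Fc replicate 2, Dll4-Fc replicate 3 or untreated replicate 2. With cyclic loess 8 rose and 1 fell.

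The MYB list showed the largest falls of the 9 lists. Of 14 measured targets, relatives and coactivators of MYB, 9 fell, 4 of them at least 2-fold, and 0 rose. By comparison, 15.0% of all genes fell and 11.6% rose. The median of the list was -0.57. KIT, the stem cell factor receptor, had 6.13, 5.98 and 6.27 on the Dll4-Fc arrays, against 8.23, 8.17 and 8.07 on the untreated arrays (difference -2.03 ± 0.09, limma adjusted p = 4.42e-06). The granule protease gene CTSG had 12.58, 12.60 and 12.74 on the Dll4-Fc arrays, against 14.16, 14.13 and 14.14 on the untreated arrays (-1.50 ± 0.06), and PRTN3, another protease of the same granules, differed by -1.30 ± 0.07. KIT is measured by 1 probe set, whose suffix marks probes that can match more than one transcript. The difference of MYB itself, for comparison, was -0.41, and whether MYB acts on the genes of this list was not tested. Those of these genes that encode granule proteins are also markers of promyelocytes, and the part of maturation in their change was not tested.

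The partners of CDK6 changed in both directions. Of 13 measured, 3 rose, 3 fell and 7 did not pass, where 11.6% of all genes rose and 15.0% fell. The median was -0.04. CCND3, a D-type cyclin that activates CDK6, had 10.86, 10.85 and 10.79 on the Dll4-Fc arrays, against 10.47, 10.41 and 10.38 on the untreated arrays (difference 0.41 ± 0.05, limma adjusted p = 0.00130). CCND1, another D-type cyclin, rose by 0.55 ± 0.11 (limma adjusted p = 0.0103), and RB1, the growth-restraining protein that CDK6 phosphorylates, by 0.44 ± 0.06 (0.00165). CCND1 and CCND3 therefore rose in the same arrays in which CDK6 fell, while CCND2, a dim probe set, differed by -0.12 ± 0.08 and did not pass. CDKN2D, an inhibitor of CDK4 and CDK6, fell by 0.52 ± 0.07 (limma adjusted p = 0.00116), but its probe set outside the shared ones gave 0.15 (adjusted p = 0.373). The others that fell were RBL2 (-0.28, limma adjusted p = 0.0484) and CDK4 (-0.18, 0.0401). The CDK4 call was lost in 5 of 6 cases of a left-out array, with cyclic loess (limma adjusted p = 0.0552) and with median centring (0.0724). Leaving out Dll4-Fc replicate 1, Dll4-Fc replicate 2 or untreated replicate 2 left 1 that fell.

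ID1 and ID3, the close relatives of ID2, rose as well. ID1 had 8.53, 8.45 and 8.30 on the Dll4-Fc arrays, against 8.05, 8.0 and 7.81 on the untreated arrays (difference 0.47 ± 0.09, limma adjusted p = 0.00665), and ID3 differed by 0.55 ± 0.09 (0.00433). ID4 differed by -0.01 ± 0.07 and did not pass. Of the 8 measured genes of this list 2 rose, and the only one that fell was LYL1, a basic helix-loop-helix factor of blood progenitors, which binds DNA with E proteins (-0.56 ± 0.05, limma adjusted p = 2.49e-04). By comparison, 11.6% of all genes rose and 15.0% fell. The E protein genes TCF3, TCF4 and TCF12 differed by -0.14, 0.13 and 0.10, none past the threshold. ID1, ID3 and LYL1 are each measured by a single probe set, whose suffix marks probes that can match more than one transcript.

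Of 16 measured Polycomb genes, the partners of BMI1, 3 fell, 1 rose and 12 did not pass, with a median of -0.09. The share that passed, 25%, was near the 26.6% of all genes. The 3 were CBX7 (-0.58 ± 0.10, limma adjusted p = 0.00370) and CBX6 (-0.46 ± 0.05, 6.26e-04), both readers of the Polycomb histone mark, and PCGF3, a relative of BMI1 (-0.58 ± 0.05, 2.19e-04). For PCGF3 only 1 of 5 probe sets passed as lower, and the mean of its probe sets differed by -0.17 (limma adjusted p = 0.0374). Among genes whose brightest probe set did not pass, PCGF5 had 2 of 5 probe sets higher. In CBX2 1 of 4 and in PHC3 1 of 5 passed as lower. PHC2, a structural subunit, rose by 0.21, and with an array left out no gene of the list rose except without untreated replicate 3, where 1 did.

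**Figure D3:**
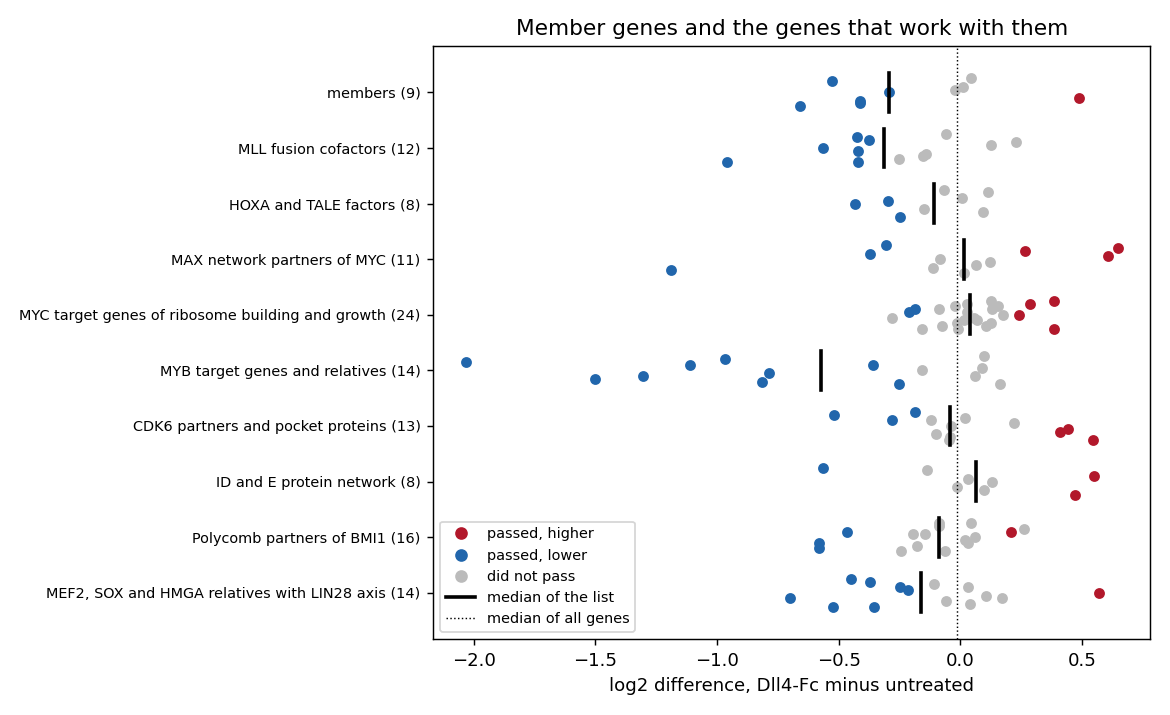
Log2 difference (Dll4-Fc minus untreated) of each measured member gene and of each gene in the 9 partner lists, with the number measured in brackets. Red genes passed as higher, blue as lower and grey did not pass; thick bars are list medians and the dotted line is the median of all genes (-0.01). The MYB list reaches furthest to the left, down to -2.03 for KIT, while the MYC target list stays within -0.28 and 0.38. No HOXA gene is among the measured genes of the HOXA and TALE list.

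Among the relatives of MEF2C, SOX4 and HMGA2 and the factors that act with them, 7 of 14 fell and 1 rose. By comparison, 15.0% of all genes fell and 11.6% rose. The median of the list was -0.16. SOX12, the close relative of SOX4, fell by 0.70 ± 0.07 on the log2 scale (limma adjusted p = 4.27e-04), and HDAC4, a deacetylase that represses MEF2 factors, by 0.52 ± 0.06 (7.70e-04). HMGA1, the relative of HMGA2, fell by 0.22 ± 0.05 (limma adjusted p = 0.0203), a call lost without Dll4-Fc replicate 1, Dll4-Fc replicate 2 or untreated replicate 1 (adjusted p = 0.0677 to 0.0782). IGF2BP3, an RNA-binding protein of embryonic and leukaemic cells, rose by 0.57 ± 0.13 (limma adjusted p = 0.0147), but its signal is dim, and it gave 0.06 (adjusted p = 0.806) where shared probe sets were removed and 0.51 (0.0510) where Dll4-Fc replicate 3 was.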

How the data were processed

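RNA from 6 THP1 samples was hybridized to 1 array each. The deposited intensities, on a linear scale, were made by the authors with RMA (background correction, quantile normalization and probe summary), per the submitters' processing notes. No version of RMA is given in the sources used here. They were log2 transformed here, with no filter. The number of arrays limits precision; differences had a median SE of 0.086. Of 54675 probe sets, 41097 had exactly 1 gene symbol in the platform annotation, 1801 several and 11777 none. The test was limma 3.58.1 under R 4.3.3 (lmFit, eBayes, 2-sided), over all probe sets for members and over 1 probe set per gene, the brightest on average, for partner lists and gene counts. The same p adjustment was used in both, and the procedure was tested on simulated data. Member values come from the fit over probe sets.

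Members, lists and tests were chosen with earlier results of these data known. Named are all members, up to 3 passing genes with the largest change per list, the 2 genes most correlated with each of the 3 most changed members, 11 genes fixed by name, and genes given to spell out a small count or an overlap, which were chosen after their values were seen. Alternatives tried were a block for the replicate number, cyclic loess, median centring, a trended robust prior, array weights, no dim probe sets, the mean of a gene's probe sets, no probe sets shared between transcripts (suffix _s_at, _x_at or _a_at), and each array left out.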

Additional observations from a re-analysis of the deposited data

How the results depend on the processing

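In the fit over genes members kept their calls (5 lower, 1 higher) under all alternatives except the removal of probe sets shared between transcripts. With that removal MYC and ID2 have no probe set left, and 4 genes fell and 0 rose. There 0 member probe sets rose and 10 fell, and 2169 probe sets rose and 3121 fell in all. CDKN2D turned to 0.15 (adjusted p = 0.373) in that setting, and HES1, MERTK, CD86, RRP12 and IGF2BP3 lost their calls. As the mean of a gene's probe sets, PKNOX1, RRP12, CDKN2D (-0.19) and IGF2BP3 (0.28) lost their calls, and AFF1 (-0.59), KMT2A (-0.26), TFRC (0.17), PCGF3 (-0.17), SOX12 (-0.38), CCND3 (0.20), CD86 (1.49) and MERTK (2.29) passed with smaller differences. With an array left out, 2 to 3 member probe sets rose and 7 to 13 fell, 2788 to 3789 of all probe sets rose and 2906 to 5626 fell, 1795 to 2269 of all genes rose and 1850 to 3189 fell, and 9 to 14 partner genes rose and 28 to 39 fell. With cyclic loess 23 partner genes rose. Of 405 values of single member probe sets under alternatives, 0 reversed, 27 lost their call and 5 gained one. With the replicate number as a block, 10 member probe sets fell. In that fit over probe sets 204082_at of PBX3 (adjusted p = 0.0739), 243000_at of CDK6 (0.0717) and 1568286_at of HMGA2 (0.110) no longer passed. In the fit over genes with that block PBX3 kept its call, while the partner genes PKNOX1, MEIS2, RRP12, CDK4 and HMGA1 did not. Deviations of same-numbered arrays from their group means correlated at -0.02, -0.14 and -0.13, and 0 of 6 arrays resembled their own number best, so the numbers are not taken as pairs. Signal limits MEIS1 and HMGA2, all of whose probe sets lie below the median of all values.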

Other observations

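Over the 6 arrays, and among the 9887 genes whose mean signal lay above the median of all genes, the genes whose signals ran most closely with the 3 members of largest difference were NCALD and TMPO-AS1 for CDK6 (both Pearson r = 0.999), B3GNT5 and GPSM2 for MYC (r = 0.9997 and 0.999) and DUSP1 and NFKBIZ for ID2 (r = 0.999 for both). With only 2 groups of arrays these values mainly restate the difference between the groups: NCALD differed by -1.47, TMPO-AS1 by -0.94, B3GNT5 by -0.60, GPSM2 by -0.51, DUSP1 by 2.34 and NFKBIZ by 1.75 on the log2 scale. They are given as a description, without a test.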
